A study of Mus musculus with 15 samples.

Results

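The HindIII sites of mouse chromosome 6 from 106.0 to 108.0 Mb (the low block) and from 111.5 to 112.5 Mb (the high block) are a pair of regions that a 4C-seq bait at Ifng, on chromosome 10, captured far more often than nearly all other regions of other chromosomes. The blocks hold 675 and 351 sites, together 1026 of the 823355 HindIII sites of the mm9 build that were read. They were chosen from the captured shares of the Ifng bait in these same libraries, so the level of those shares is given below as a description, with no test. The tests are of capture by the baits at Pparg and Lpin1, which the choice did not use, and of differences in capture between days, cell lines and library numbers. For the Ifng bait, those differences are not independent of the choice.

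In 4C-seq, chromatin is fixed, cut with a restriction enzyme and ligated, and fragments joined to 1 chosen site, the bait, are amplified and sequenced. Sites that lay near the bait in the nucleus are read more often. On the bait's own chromosome, capture falls steeply with distance. Captured sites on other chromosomes are sparse, because chromosomes occupy largely separate territories, and regions that do recur there often share an active or inactive compartment with the bait. Ifng encodes interferon gamma, a cytokine made by T and natural killer lymphocytes, and the gene is silent in fibroblasts and fat cells. Pparg codes for a nuclear receptor needed to make fat cells, and Lpin1 encodes a phosphatidate phosphatase of triglyceride synthesis.

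Each bait was read in a B lymphocyte cell line (1 library) and in 3T3-L1 cells, an embryonic mouse fibroblast line that becomes fat cells under a hormone cocktail. The 3T3-L1 cells were taken at day 0, as confluent preadipocytes, and at days 1, 2 and 6 after dexamethasone at 1 µM, 3-isobutyl-1-methylxanthine at 0.5 mM and insulin at 1 µg/ml in 10% serum. Each day has 2 libraries per bait, deposited as 2 files of 1 sample and numbered as replicates 1 and 2 in the file names, which gives 8 for 3T3-L1 and 27 libraries in all. Nothing in the labels says that they came from separate cultures, so the p-values below measure the spread between these libraries, which may be technical.

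A site with at least 1 read counts as captured, and the captured share is the percentage of a region's sites that were captured. For Ifng and Lpin1, dividing it by the captured share of the chromosomes other than the bait's in the same library gives its multiple. For Pparg, whose bait site at 115369246 to 115369251 bp lies on chromosome 6, the divisor is the captured share of chromosome 6. A read multiple is the same ratio for reads per site. The high block lies 2.87 to 3.87 Mb and the low block 7.37 to 9.37 Mb below the Pparg bait. Flanks of chromosome 6 from 104.0 to 106.0 Mb (low flank, 698 sites), 108.0 to 110.0 Mb (middle flank, 643 sites) and 112.5 to 113.5 Mb (high flank, 292 sites) serve for comparison. Sites were about as dense in the blocks, at 337.5 and 351 per Mb, as in the flanks, at 292 to 349 per Mb. Outside the 10 kb on each side of the bait, the libraries held 110369 to 802403 reads for Ifng, 42094 to 2041336 for Pparg and 717737 to 2536087 for Lpin1. Of the Ifng reads, 35528 to 229284 per library lay on other chromosomes.

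In the low block the Ifng bait captured 17.3% of sites in B cells (95% Wilson interval 14.7% to 20.4%, which covers counting error only) and 35.9% ± 9.42 in 3T3-L1 cells (SD, n = 8). By day, the libraries numbered 2 and 1 captured 30.8% and 50.7% on day 0, 32.4% and 30.8% on day 1, 32.0% and 51.4% on day 2, and 31.6% and 27.9% on day 6. The B cell share lay below all 8 of these, on whose shares the block was chosen. The B cell library also captured the smallest share of all other chromosomes, 2.05%, against 2.13% to 7.40% in the 3T3-L1 libraries. Relative to that, the block stood at a multiple of 8.44 in B cells and 8.82 ± 2.84 in 3T3-L1 cells (range 5.07 to 13.1), so the B cell value fell within the 3T3-L1 range.

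In the high block the Ifng bait captured 25.4% of sites in B cells (95% Wilson interval 21.1% to 30.2%) and 43.3% ± 9.37 in 3T3-L1 cells. The libraries numbered 2 and 1 captured 40.2% and 57.5% on day 0, 39.0% and 39.0% on day 1, 39.9% and 59.0% on day 2, and 37.0% and 35.0% on day 6. The multiple was 12.4 in B cells and 10.8 ± 3.66 in 3T3-L1 cells (range 6.61 to 16.5). It was above that of the low block in each of these 9 libraries.

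The flanks were captured much less by the Ifng bait. The low flank stood at a multiple of 1.74 in B cells and 2.97 ± 0.45 in 3T3-L1 cells, and the middle flank at 2.35 and 2.08 ± 0.25. The high flank, at 0.83 in B cells and 0.75 ± 0.25 in 3T3-L1 cells, was near or below the level of other chromosomes. In percentage points, the low block exceeded the low and middle flanks together by 13.2 in B cells and 24.8 ± 5.96 in 3T3-L1 cells. The high block exceeded the middle and high flanks by 21.5 in B cells and 36.0 ± 7.48 in 3T3-L1 cells. Within 1 Mb of the Pparg bait, on the same chromosome, the Ifng multiple was 1.33 in B cells and 0.97 ± 0.17 in 3T3-L1 cells.

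**Figure D1:**
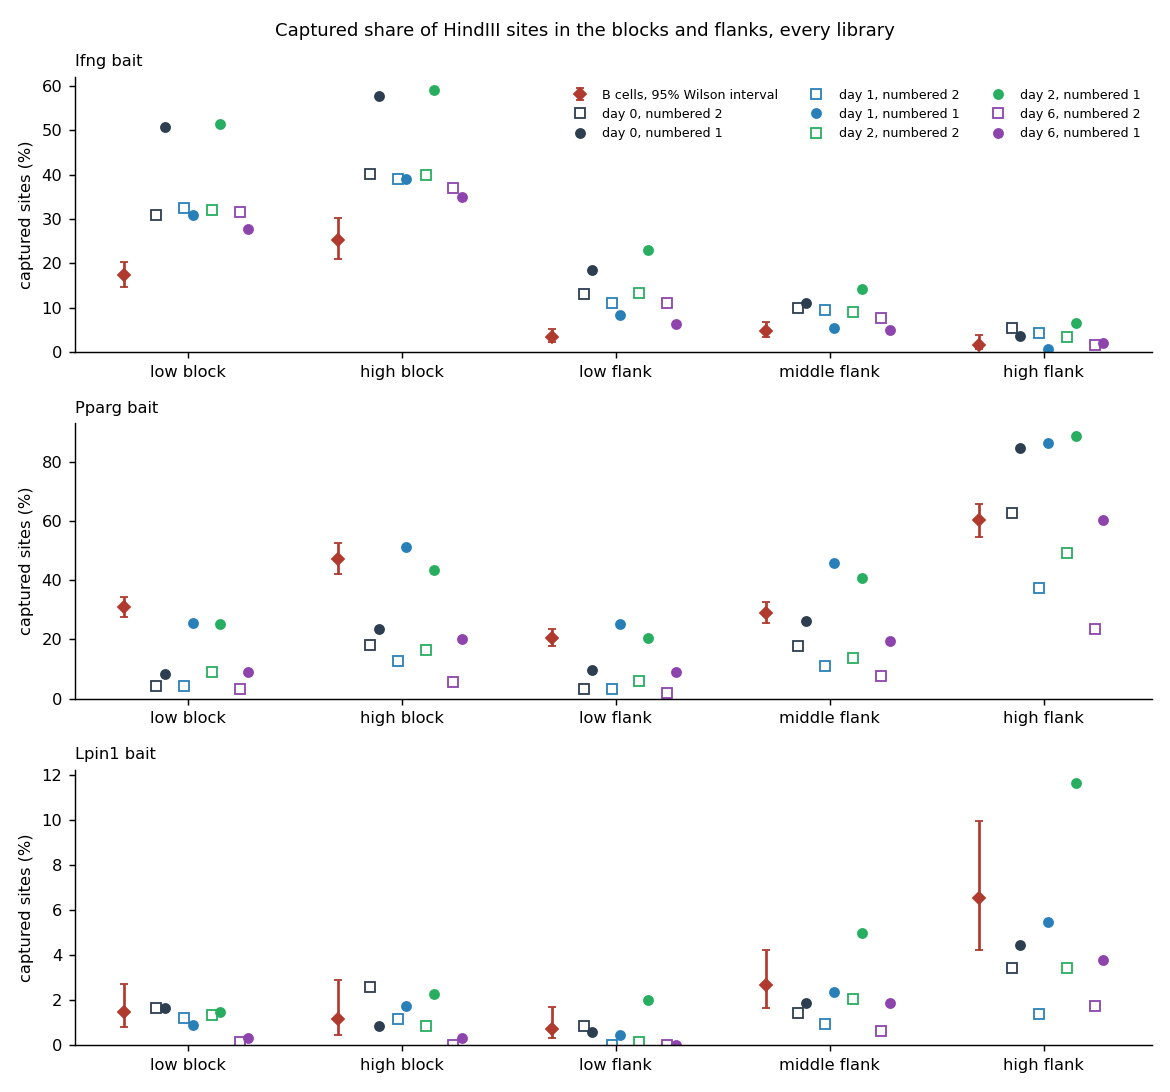
Captured share of HindIII sites (%, vertical axis) in both blocks and the 3 flanks, with 1 panel per bait. Diamonds are the B cell library with its 95% Wilson interval, and open squares and filled circles are the 3T3-L1 libraries numbered 2 and 1, coloured by day. With the Ifng bait both blocks stand above all flanks in every library. With the Pparg bait the B cell library stands highest in the low block, at 30.8%, and with the Lpin1 bait no library captured more than 2.56% of either block.

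Among 4888 windows of 500 kb on chromosomes other than 10 with at least 50 sites, the window from 106.0 to 106.5 Mb ranked 1 in all 8 Ifng 3T3-L1 libraries and in the B cell library. It was captured at 30.1% in B cells and 55.6% ± 13.4 in 3T3-L1 cells. The other windows of the blocks ranked 27, 7 and 43 (106.5, 107.0 and 107.5 Mb) and 4 and 5 (111.5 and 112.0 Mb) by the 3T3-L1 mean, and 13, 4, 106, 3 and 2 in B cells. Just inside the limits of the low block, 106.0 to 106.5 Mb and 107.5 to 108.0 Mb averaged 55.6% and 20.4% in 3T3-L1 cells. Just outside, 105.5 to 106.0 Mb and 108.0 to 108.5 Mb averaged 7.71% and 5.95%. For the high block, 112.0 to 112.5 Mb averaged 41.7% inside and 112.5 to 113.0 Mb 4.62% outside. The 500 kb window of the middle flank from 109.5 to 110.0 Mb, at 18.2%, ranked 53, so the limits of the blocks were not the limits of raised capture on chromosome 6.

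**Figure D2:**
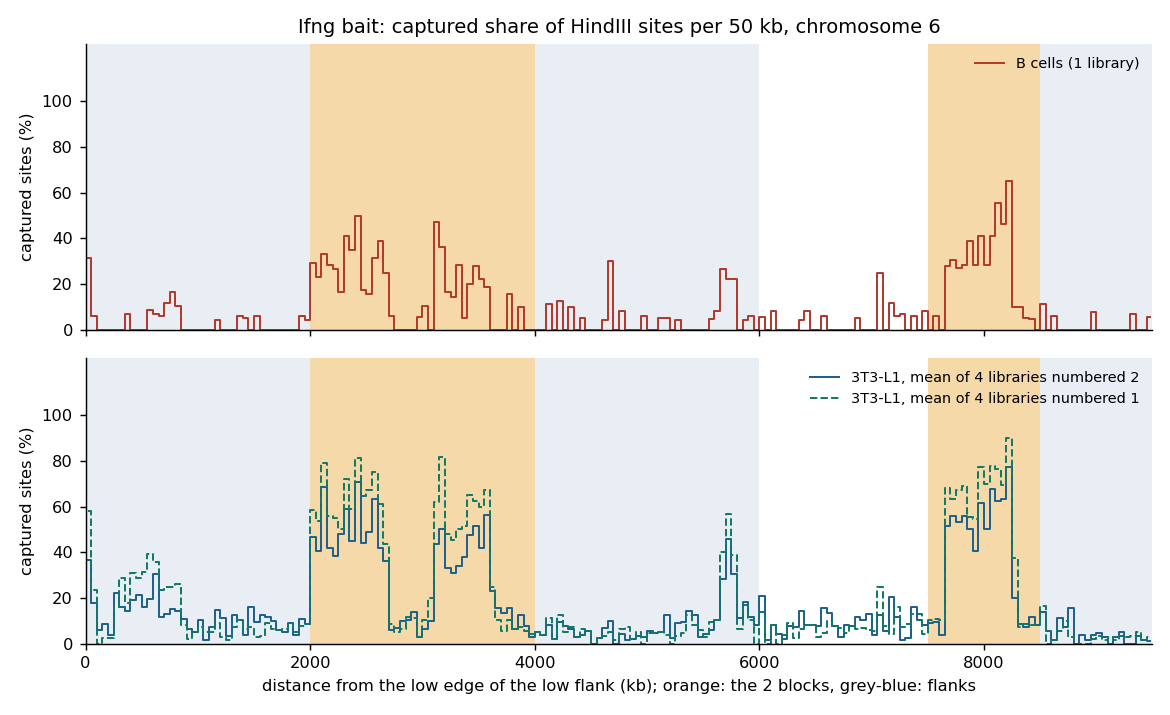
Captured share of HindIII sites (%, vertical axis) per 50 kb for the Ifng bait, against distance from the low edge of the low flank (kb), in B cells (upper panel) and as means of the 4 3T3-L1 libraries numbered 2 and numbered 1 (lower panel). Orange marks the blocks and grey-blue the flanks. Capture is raised in 3 plateaus within the blocks, at the same places in both cell lines, and is low between the 2 of the low block. A short part of the middle flank is also raised, at 34.2% to 51.4% per 50 kb over all 3T3-L1 libraries and 22.2% to 26.7% in B cells. The 2 curves of 3T3-L1 libraries step up and down together.

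Capture did not fill the blocks evenly. Runs of captured sites were outlined on the 8 Ifng 3T3-L1 libraries as places where a running mean over 11 sites reached 30% of the libraries. The runs lay between sites captured in at least 3 libraries, with at least 8 such sites, and are called stretches here. This definition was made after the values were seen and is a description. The low block holds a stretch from 106010545 to 106678145 bp (668 kb, 224 sites) and one from 107109725 to 107604280 bp (495 kb, 166 sites). The high block holds one from 111649330 to 112265045 bp (616 kb, 222 sites). Together they hold 612 of the 1026 block sites. Smaller ones lay at the low flank's outer edge (103979591 to 104047904 bp, 28 sites) and in the middle flank (109685291 to 109771066 bp, 30 sites). By the same definition chromosome 16 held 68 stretches covering 5.94 Mb, chromosomes 5 and 11 held 1 each, and the remaining chromosomes other than 10 held none.

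Within the low block's stretches the Ifng bait captured 27.4% of sites in B cells and 55.2% ± 14.6 in 3T3-L1 cells, and in the rest of the low block 3.51% and 9.61% ± 3.12. The stretch of the high block was captured at 37.8% in B cells and 63.7% ± 12.6 in 3T3-L1 cells, and the rest at 3.88% and 8.24% ± 4.42. The multiple outside the stretches, over both blocks, was 1.76 in B cells and 2.08 ± 0.18 in 3T3-L1 cells. The multiple of the middle flank given above is not a like value, since it counts that flank's own stretch. The 500 kb windows of the middle flank that hold no stretch averaged 3.42% to 6.84% in 3T3-L1 cells. In B cells they were captured at 1.68% to 4.32%. By 100 kb, the highest 3T3-L1 share was 68.1% ± 9.19, from 112.1 to 112.2 Mb, which was also the highest in B cells at 51.6%. From 106.7 to 107.1 Mb, between the stretches of the low block, the 3T3-L1 means were 6.55% to 11.4% and the B cell shares 0% to 5.88%. Over the 30 windows of 100 kb the B cell and mean 3T3-L1 shares correlated at Pearson r = 0.917 and Spearman rho = 0.894, as a description of neighbouring windows that share libraries and site density.

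The edges of the stretches differed in how steeply capture changed. The first stretch began with 3 sites that all 8 3T3-L1 libraries had captured, and the site 890 bp before it was captured in 0. Over the 20 sites on each side of that edge, 35% were captured inside and 5% outside in B cells, and 61.9% ± 14.6 and 6.88% ± 7.53 in 3T3-L1 cells. The high edge of the high-block stretch had 55% of sites captured inside and 10% outside in B cells, and 84.4% ± 11.2 inside and 8.75% ± 5.82 outside in 3T3-L1 cells. At the low edge of that stretch these were 30% and 0% in B cells, and 60.6% ± 19.4 and 5% ± 5.35 in 3T3-L1 cells. The high edge of the first stretch was less steep than its low edge. There these were 35% and 5% in B cells, and 52.5% ± 20.2 and 11.25% ± 5.82 in 3T3-L1 cells. In 3T3-L1 cells both edges of the second stretch of the low block were also shallower than the first stretch's low edge. The first 3 sites of the second stretch were captured in 3, 0 and 3 of the 8 libraries. A site 3.48 kb before the second stretch was captured in 5. At the low edge of the second stretch 50% of sites were captured inside and 10% outside in B cells. In 3T3-L1 cells these were 58.8% ± 17.5 and 15.6% ± 11.2. At its high edge these were 15% and 0% in B cells and 59.4% ± 18.2 and 17.5% ± 5.98 in 3T3-L1 cells. At all 6 edges the inside share was higher in 8 of 8 libraries, which the outlining itself favours. For the Lpin1 bait at most 2 of 8 libraries were higher inside at any of the 6 edges. Its 3T3-L1 means were 0% to 4.375% inside and 0% to 3.125% outside. Capture that sparse leaves many libraries with no captured site on either side, so the count cannot show whether there was a step. The Pparg bait was higher inside in 1 to 3 of 8 libraries at 5 edges. At the high edge of the high-block stretch all 8 Pparg 3T3-L1 libraries were higher inside, at 56.9% ± 28.3 against 30.6% ± 19.9 outside, while the B cell library captured 60% inside and 65% outside.

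**Figure D3:**
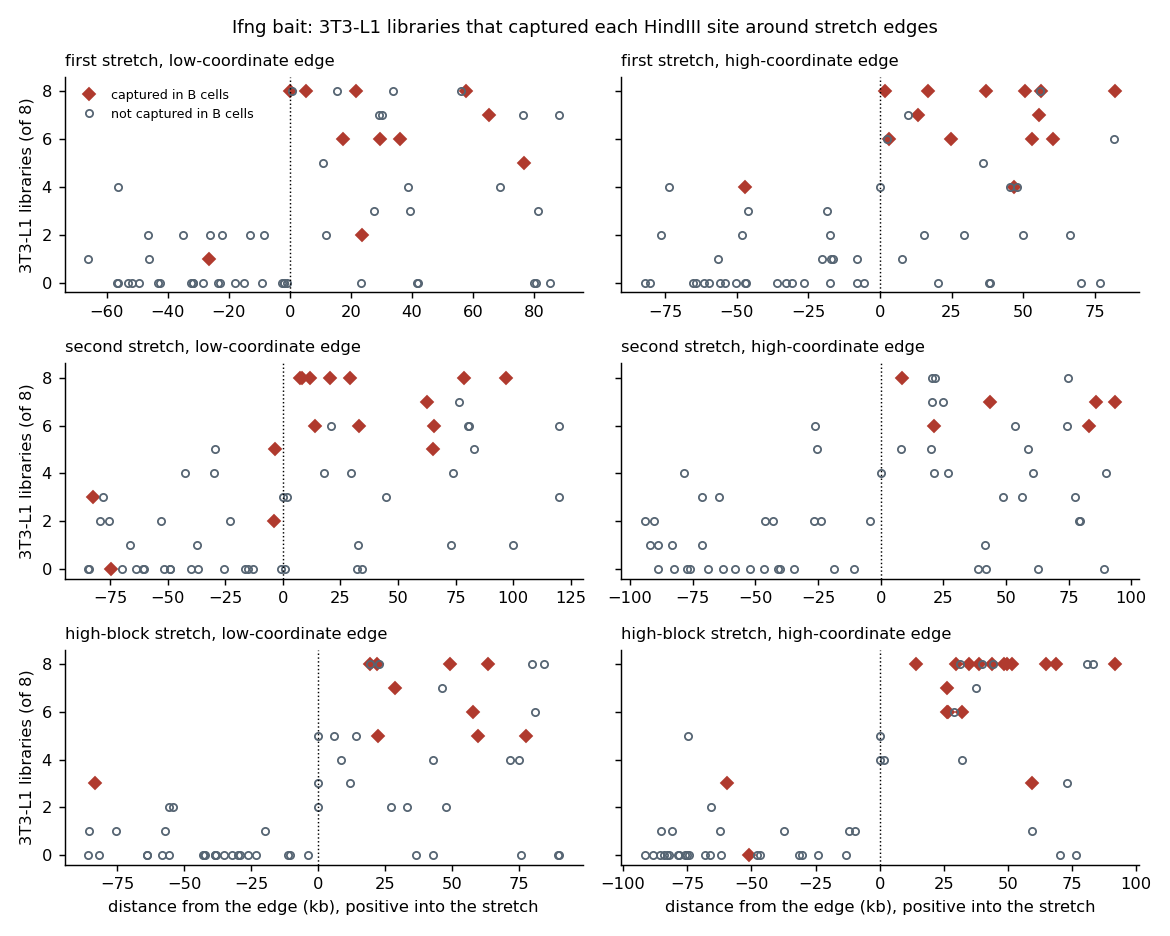
Number of the 8 Ifng 3T3-L1 libraries (vertical axis) that captured each HindIII site within 30 sites of the edges of the 3 stretches in the blocks, against distance from the edge in kb, positive into the stretch. Filled diamonds are sites that the B cell library also captured. At the low edge of the first stretch the sites outside reach at most 4 libraries, and the first 3 inside reach 8.

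Single sites recurred between libraries. Of the 1026 block sites, 139 were captured by Ifng in all 8 3T3-L1 libraries, 138 of them within the stretches. On all chromosomes other than 10, 383 sites were captured in all 8, so 36.3% of them lay in the blocks, with 151 on chromosome 16 and 21 elsewhere on chromosome 6. Of the 206 block sites captured in B cells, 204 (99.0%) were also captured in at least 1 3T3-L1 library, and these are 31.1% of the 655 captured there. The B cell library captured 97 of the 139 sites found in all 8 (69.8%). In contrast, 183 block sites were captured in none of the 27 libraries of any bait. Sites within the stretches that no Ifng 3T3-L1 library captured (91) were also rarely captured by Pparg: 16.5% had a read in at least 1 of 8 Pparg 3T3-L1 libraries, against 84.8% of the 138 sites that Ifng captured in all 8. The median distance to the nearest HindIII site was 1132 bp for those 91 and 941.5 bp for the 138.

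No single site carried the blocks. The top site took 2.62% of the block's Ifng reads in B cells and 1.36% to 2.36% in 3T3-L1 cells, and the top 10 sites took 15.4% and 10.0% to 14.2%. The site captured in all 8 libraries with the largest mean share of reads in the low block lay at 107138759 to 107138764 bp. It had 6 Ifng reads in B cells. Its reads in the 3T3-L1 libraries numbered 2 and 1 were 13 and 200 at day 0, 24 and 10 at day 1, 9 and 207 at day 2, and 10 and 21 at day 6. It had 0 reads in all 9 Lpin1 libraries and in 8 of 9 Pparg libraries, with 78 in the day 2 Pparg library numbered 1. The next sites, at 107116958 to 107116963 bp and 107130117 to 107130122 bp, lay close by in the same stretch, with 1 and 2 reads in B cells and 2 to 151 in 3T3-L1 cells. In the high block the leading sites lay at 112225340 to 112225345 bp, 112230298 to 112230303 bp and 112165334 to 112165339 bp. They had 0, 4 and 1 Ifng reads in B cells and 4 to 171 in 3T3-L1 cells. Of these, the site at 112230298 bp was also read by Pparg in 7 of 8 3T3-L1 libraries, with up to 482 reads, and by Lpin1 in none.

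Reads in the blocks separated the libraries by their number. The read multiple of the low block was 5.33 in B cells. In the 3T3-L1 libraries numbered 2 and 1 it was 6.71 and 44.6 on day 0, 9.40 and 26.8 on day 1, 6.93 and 36.7 on day 2, and 10.4 and 25.0 on day 6. In the high block it was 8.02 in B cells, and 10.0 and 67.2, 10.9 and 50.1, 12.1 and 64.3, and 17.3 and 43.5 on these days. The libraries numbered 2 averaged 8.35 ± 1.81 in the low block and 12.6 ± 3.28 in the high block, against 33.3 ± 9.15 and 56.3 ± 11.4 in those numbered 1 (SD, n = 4 each), and in neither block did the ranges overlap. Read multiples of the flanks lay closer, at 2.98 ± 0.53 against 3.86 ± 0.41 in the low flank, 2.28 ± 0.59 against 4.71 ± 1.33 in the middle flank and 0.69 ± 0.43 against 1.00 ± 0.65 in the high flank. The libraries numbered 2 held 156614 to 385905 reads outside the bait and those numbered 1 held 110369 to 802403, so these ranges overlap. Nothing in the labels says what the numbers stand for, and whether they mark a batch was not tested.

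The 6 windows of 500 kb in the blocks were tested for this difference with edgeR's quasi-likelihood test across all windows. These windows were chosen for high Ifng capture in the same libraries, so their values are not independent of the choice. On captured sites, 0 of 6 passed at an adjusted p of 0.05, against 0.835% of all 4190 windows tested. Their log2 differences, libraries numbered 2 minus those numbered 1, ran from -0.71 to -0.26, and 5 of 6 had an unadjusted p under 0.05, against 9.02% of all windows. The lowest adjusted p was 0.0767, for 107.0 to 107.5 Mb. With at least 2 reads needed for a captured site, 4 of 6 passed, against 5.55% of windows. On reads in place of captured sites, 5 of 6 windows were lower in the libraries numbered 2, against 0.858% of all 4310 windows called lower and 1.02% called in either direction. Those 5 had log2 differences of -2.40 to -2.06 and adjusted p of 2.0e-05 to 2.6e-04 in edgeR.

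**Figure D4:**
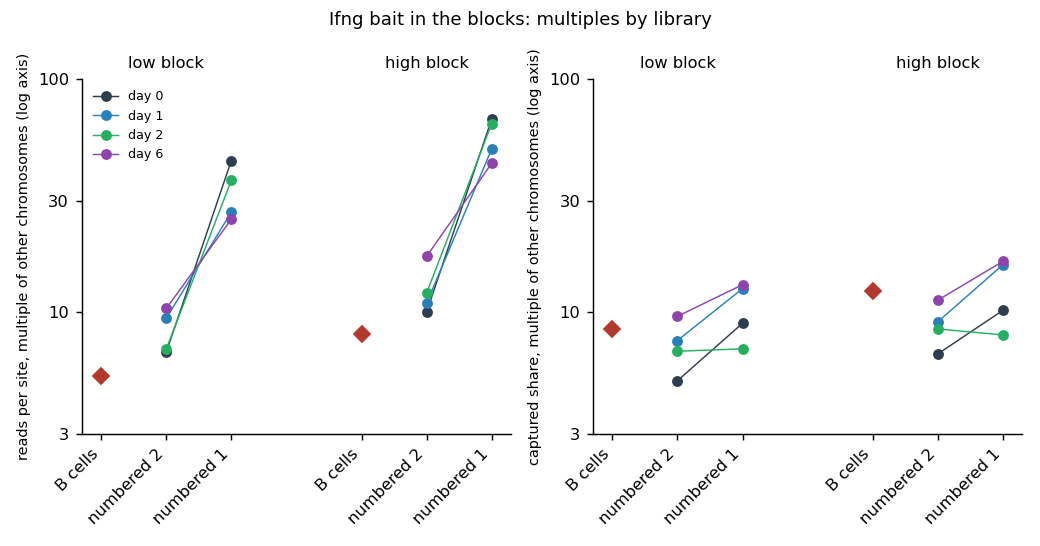
Read multiple (left) and multiple of the captured share (right) of the blocks for the Ifng bait, both on a log axis, in the B cell library (diamonds) and in the 3T3-L1 libraries numbered 2 and 1, joined by day. The read multiples are higher in the library numbered 1 on every day, and the ranges, 6.71 to 10.4 and 25.0 to 44.6 in the low block, do not overlap. The multiples of the captured share do overlap.

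Over the days of fat cell formation, the Ifng capture of the blocks did not change past the threshold. The multiple of the low block averaged 7.01 on day 0, 10.1 on day 1, 6.87 on day 2 and 11.3 on day 6, and that of the high block 8.39, 12.5, 8.22 and 13.9 (n = 2 each). The captured shares themselves ran the other way, at 40.7%, 31.6%, 41.7% and 29.7% in the low block (n = 2 each). The share captured on all other chromosomes was 2.13% to 4.30% on days 1 and 6 and 4.72% to 7.40% on days 0 and 2. In edgeR, 0 of 6 block windows passed for day 1, day 2 or day 6 against day 0, as did 0% of all 4134 windows tested in each contrast. At an unadjusted p under 0.05 there were 130, 136 and 165 windows, with 0 of the 6 among them, and DESeq2 also called 0 of the 6. The median log2 difference of the block windows was 0.49 for day 1, -0.05 for day 2 and 0.62 for day 6, with 6, 2 and 6 of 6 above 0, against -0.02, 0.00 and -0.05 over all windows. The direction of day 1 turned after thinning and on reads. That of day 6 turned on reads and was near 0 after thinning. After thinning each library to 110369 reads outside the bait the medians were -0.18, -0.11 and -0.01, with 2 of 6 above 0 on each day. Over all windows the thinned medians were -0.03, -0.02 and -0.05. On reads the block medians were -0.66, -0.35 and -0.74, with 0, 1 and 0 of 6 above 0, against -0.01, 0.04 and -0.09 over all windows. Without the day 0 library numbered 1, 3 of 6 windows on day 1 and 6 of 6 on day 6 had an unadjusted p under 0.05, with medians of 0.92 and 1.06, and 0 passed adjustment. Without the day 0 library numbered 2 the medians were 0.13, -0.38 and 0.32, and without the day 1 library numbered 1 that of day 1 was 0.10. These 3 contrasts share the day 0 libraries. With 2 libraries per day, a count of 0 does not show that the windows did not differ.

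Between the cell lines, 0 of 6 block windows passed for Ifng, against 0.435% of 4134 windows tested with edgeR. Their log2 differences, B cells minus 3T3-L1, lay between -0.49 and 0.40, with standard errors of 0.54 to 0.59. With 1 B cell library, which was assumed to vary like the 3T3-L1 libraries, the spread is wide. The blocks were chosen on the 3T3-L1 side of this contrast, so its values are not independent of the choice. On reads the median difference of the block windows was -2.09 on the log2 scale and 0 of 6 passed.

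The Lpin1 bait, on chromosome 12, captured the blocks on average below its level on other chromosomes. In the low block it captured 1.48% of sites in B cells and 0.15% to 1.63% in 3T3-L1 cells, a multiple of 0.45 in B cells and 0.69 ± 0.42 in 3T3-L1 cells (range 0.29 to 1.35). In the high block it captured 1.14% in B cells and 0% to 2.56% in 3T3-L1 cells, a multiple of 0.35 and 0.67 ± 0.45. The day 6 library numbered 2 captured 0 of 351 sites, with a Wilson upper bound of 1.08%. Within the Ifng stretches of both blocks the Lpin1 multiple was 0.45 in B cells and 0.73 ± 0.39 in 3T3-L1 cells. Capture was so sparse that none of the 6 windows reached the mean of 3 captured sites needed for testing between days or cell lines. Of the 2250 windows that did, edgeR called 0.222% between the cell lines and 0% on any day.

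Each block was set against the flanks on both sides of it, library by library, for the 2 baits that had not chosen it, with two-sided exact sign-flip permutation tests over the 8 3T3-L1 libraries (smallest possible p 0.0078125, adjusted over 4 tests). For Lpin1 the low block differed from its flanks by -0.16 percentage points in B cells and -0.15 ± 0.87 in 3T3-L1 cells (exact p = 0.719). The high block was lower than its flanks, by -2.71 points in B cells and -1.54 ± 1.61 in 3T3-L1 cells (exact p = 0.03125, adjusted p = 0.0417), with 6 of 8 libraries negative. That call was lost in 6 of 8 repeats that left out 1 library, where the p was 0.0625: those without the day 0, day 1 and day 2 libraries numbered 1, the day 2 library numbered 2, and either day 6 library. It was also lost against the middle flank alone, at -0.79 ± 1.15 points (exact p = 0.0938).

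Copy number was not measured, since no library of uncaptured genomic DNA was used here. The Lpin1 and Ifng libraries of 1 cell line read the same genome at the same sites, and the values set side by side are these: in B cells the blocks together stood at a multiple of 0.42 for Lpin1 and 9.78 for Ifng, and in 3T3-L1 cells at 0.68 ± 0.40 for Lpin1 and 9.48 ± 3.11 for Ifng.

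The Pparg bait captured the low block at a higher share in the B cell library than in any 3T3-L1 library. B cells reached 30.8% of its sites (95% Wilson interval 27.5% to 34.4%). In 3T3-L1 cells the libraries numbered 2 and 1 captured 4.44% and 8.44% on day 0, 4.30% and 25.6% on day 1, 9.04% and 25.3% on day 2, and 3.26% and 9.04% on day 6. The B cell share was above all 8. Of these, 6 were deeper than the B cell library, all but the day 1 and day 6 libraries numbered 2. Over chromosome 6 as a whole the B cell library captured 20.3% of sites, against 6.18% to 36.5% in the 3T3-L1 libraries. The deeper day 0 library numbered 2 and day 6 library numbered 1 captured 16.6% and 16.7% of it, so the captured share did not follow depth alone.

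The Pparg bait captured 47.3% of the sites of the high block in B cells (95% Wilson interval 42.1% to 52.5%). In 3T3-L1 cells the libraries numbered 2 and 1 captured 18.2% and 23.6% on day 0, 12.8% and 51.3% on day 1, 16.5% and 43.6% on day 2, and 5.70% and 20.2% on day 6. The groups overlapped here through the day 1 library numbered 1. The day 1 library numbered 2, with 110339 reads outside the bait against 126840 in B cells, is closest to the B cell library in depth. Relative to chromosome 6 as a whole, the low block stood at a multiple of 1.52 in B cells and 0.55 ± 0.19 in 3T3-L1 cells (range 0.27 to 0.81). The high block stood at 2.33 and 1.22 ± 0.27 (range 0.86 to 1.62), so that B cells lay above all 3T3-L1 libraries in both. In the low flank B cells were also above, at 1.01 against 0.45 ± 0.18, while in the middle flank, at 1.42 against 1.18 ± 0.16, and in the high flank, at 2.96 against 3.48 ± 0.67, the B cell value fell within the 3T3-L1 range. Read multiples differed more, at 0.68 in B cells and 0.12 ± 0.04 in 3T3-L1 cells in the low block and 1.33 and 0.31 ± 0.08 in the high block.

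Set against the flanks on both sides, the low block differed in Pparg capture by 6.28 percentage points in B cells and -4.88 ± 3.26 in 3T3-L1 cells, with 8 of 8 libraries negative (exact sign-flip p = 0.0078, adjusted p = 0.0156). The high block differed from its flanks by 8.58 points in B cells and -10.9 ± 4.81 in 3T3-L1 cells, again with 8 of 8 negative (exact p = 0.0078, adjusted p = 0.0156). After thinning each library to 42094 reads outside the bait, which does not equalise duplicate reads, the differences were 5.52 and 5.60 points in B cells and -2.84 ± 1.38 and -8.63 ± 2.89 in 3T3-L1 cells. The sign in 3T3-L1 cells rested on the flank nearer the bait. Against the flank on the far side alone, the differences were 10.3 points in B cells and 1.35 ± 1.92 in 3T3-L1 cells for the low block (exact p = 0.0859), and 18.4 and 1.18 ± 2.60 for the high block (exact p = 0.227). In 3T3-L1 cells capture by Pparg was raised just above the low block, at 33.0% to 62.5% per 50 kb over the first 16 such windows of the middle flank, against 8.65% and 11.03% in the last windows of the block. In B cells the same 16 windows were captured at 7.14% to 57.9%, and the last windows of the block at 30.8% and 29.4%.

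**Figure D5:**
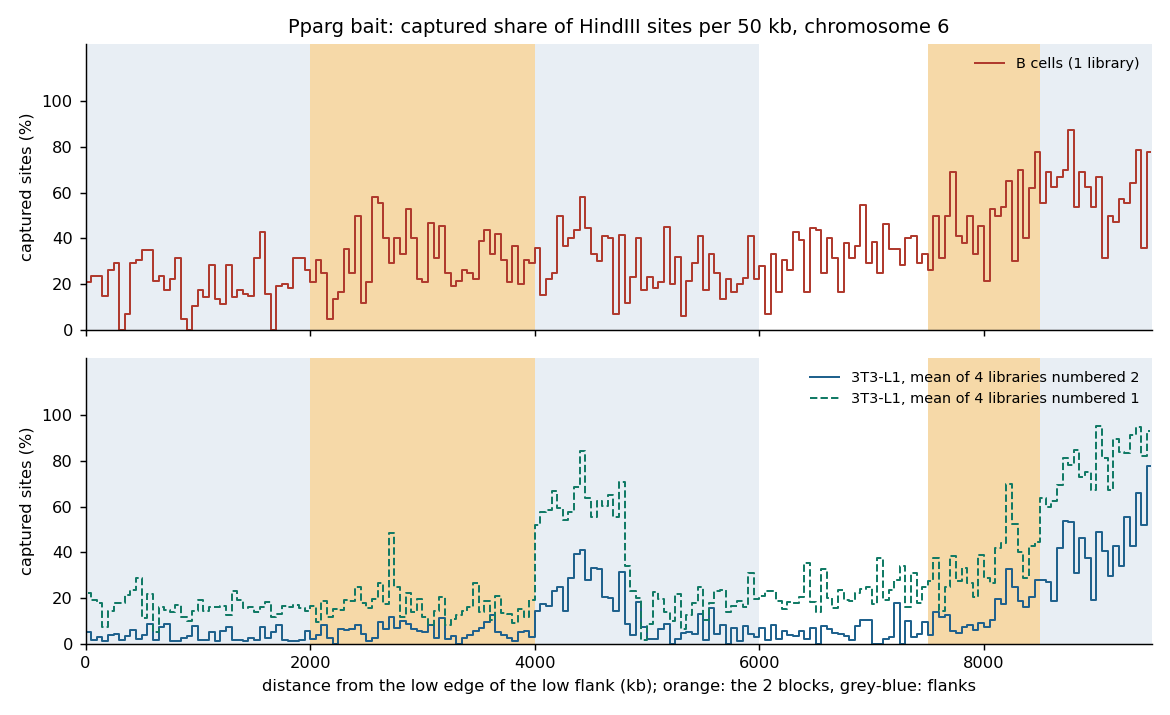
Captured share of HindIII sites (%, vertical axis) per 50 kb for the Pparg bait, against distance from the low edge of the low flank (kb), in B cells (upper panel) and as means of the 4 3T3-L1 libraries numbered 2 and numbered 1 (lower panel). Orange marks the blocks and grey-blue the flanks, and the bait lies beyond the right edge. In 3T3-L1 cells capture steps up at the border between the low block and the middle flank, and in B cells the low block is captured at a level like that of the middle flank, 30.8% and 28.9%.

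Reads of the Pparg bait in windows of 100 kb were tested with edgeR across the 1376 windows tested on chromosome 6. For B cells against 3T3-L1, 0 of the 30 block windows passed, against 0.872% of all windows. With 1 B cell library, that count does not show that the windows did not differ. The log2 difference was above 0 in 29 of 30, with a median of 2.18 against 0.06 over all windows, and 8 of 30 had an unadjusted p under 0.05, against 10.8% of all. On captured sites in place of reads, 7 of the 27 block windows tested were higher in B cells, against 2.73% of 952 windows called higher and 4.41% called in either direction. They began at 106.5, 106.6, 106.8, 107.0, 107.5, 111.6 and 111.7 Mb, with log2 differences of 1.48 to 2.23. The filter on mean captured sites counted the B cell library, so a window could be tested because B cells captured it more. That count of windows higher in B cells is therefore a description. Without the day 6 library numbered 1, edgeR called 1 of 30 on reads. DESeq2 called 2 of 30 on reads, against 2.76% of all windows, and windows of 250 kb gave 2 of 12, against 3.44%.

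With none passing, the window of smallest p among those higher in B cells was 107.0 to 107.1 Mb. It held 82 Pparg reads in B cells. In the 3T3-L1 libraries numbered 2 and 1 it held 0 and 1 on day 0, 37 and 152 on day 1, 50 and 56 on day 2, and 5 and 48 on day 6. The log2 difference, B cells minus 3T3-L1, was 3.71 ± 1.22 (SE, edgeR adjusted p = 0.120). The only window lower in B cells was 106.1 to 106.2 Mb, at -0.15 ± 2.17 (edgeR adjusted p = 1.00), with 12 reads in B cells and 0 to 211 in 3T3-L1 cells.

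Against day 0, 0 of 30 block windows passed for Pparg on day 1, day 2 or day 6, against 0%, 0.0727% and 0.291% of all windows in edgeR. The median log2 difference of the block windows was 1.13, 0.98 and 0.74, with 25, 21 and 22 of 30 above 0, against -0.07, 0.14 and 0.00 over all windows. These medians moved with single libraries. Without the day 6 library numbered 1 the day 6 median was -1.30, with 9 of 30 above 0, against -0.90 over all windows. Without the day 1 library numbered 1 the day 1 median was 0.10, with 16 of 30 above 0, against -0.94 over all windows. Without the day 2 library numbered 1 the day 2 median was 0.40, with 17 of 30 above 0, against -0.31 over all windows. Leaving out 1 day 0 library gave day 1, 2 and 6 medians of 1.05, 1.47 and 0.40 without that numbered 1 and of 1.85, 1.68 and 1.60 without that numbered 2. At an unadjusted p under 0.05 there were 2, 3 and 2 of the 30. The contrasts share the 2 day 0 libraries, and with 2 libraries per day a count of 0 does not show that the windows did not differ. The window with the smallest p in the higher direction was again 107.0 to 107.1 Mb in each, with edgeR adjusted p of 0.0915, 0.288 and 0.196. With 1 read in all on day 0 its fitted difference depends on the prior count, and no fold is given. Without the day 1 or the day 6 library numbered 1, edgeR called 1 block window for day 1. DESeq2 called this 1 window on each day, against 0.945%, 1.09% and 3.2% of all windows. In the lower direction it was 112.2 to 112.3 Mb, at -1.61 ± 0.80 for day 1, -1.81 ± 0.80 for day 2 and -1.48 ± 0.81 for day 6 (edgeR adjusted p of 0.987, 0.937 and 0.640). That window, at the top of the high-block stretch, held 116 Pparg reads in B cells. The 3T3-L1 libraries numbered 2 and 1 held 218 and 1717 there at day 0, 14 and 867 at day 1, 59 and 622 at day 2, and 15 and 198 at day 6.

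The captured shares of the Ifng and Pparg baits were set side by side within the blocks. Over the 30 windows of 100 kb the captured shares of the 2 baits correlated at Pearson r = 0.07 and Spearman rho = 0.09 in B cells and at r = 0.12 and rho = 0.21 in 3T3-L1 cells, as a description of windows that share site density. The Ifng stretches of both blocks had a Pparg captured share of 35.6% in B cells and 15.7% ± 12.2 in 3T3-L1 cells, and the rest of the blocks 37.7% and 15.4% ± 9.76. In the low block the Pparg share in 3T3-L1 cells was highest, at 21.7% ± 15.7, from 106.7 to 106.8 Mb, just past the end of the first Ifng stretch, where Ifng captured 6.55% ± 4.54. In the high block it was highest from 112.2 to 112.3 Mb, at 47.1% ± 28.2, inside the Ifng stretch, where Ifng captured 65.4% ± 10.2.

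For gene content, the gene table at hand (RefSeq, GRCm38.p6) is of another build than the files, so the edges of the blocks were not placed among genes and which genes they hold was not determined. In that table the protein-coding genes on the low-coordinate side of Pparg include a run of 19 from Chl1 to Oxtr, with 38 more between Oxtr and Pparg. From low to high coordinate the run opens with Chl1, Cntn6 and Cntn4, which encode neural cell adhesion molecules of the immunoglobulin superfamily. Il5ra, the alpha chain of the interleukin 5 receptor, follows, then Trnt1, which adds the CCA end to transfer RNAs, and Crbn, the substrate receptor of a ubiquitin ligase. After Lrrn1 and Setmar come Sumf1, which activates sulfatases, and Itpr1, a calcium release channel of the endoplasmic reticulum. Bhlhe40, a transcriptional repressor, Arl8b, a lysosomal GTPase, and Edem1, which directs misfolded glycoproteins to degradation, lie next. Then follow Gm6749, Grm7, a metabotropic glutamate receptor, Lmcd1, Ssu2, Cav3, the muscle caveolin, and Oxtr, the oxytocin receptor. No expression was measured in these samples.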

How the data were processed

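The authors deposited 27 files of counts, which are whole numbers of reads at each HindIII site, with no normalisation. Per the submitters' processing notes the aligner was Bowtie (no version given) and the reference mm9. How reads were filtered, and whether PCR duplicates were removed, is not given in the sources used here, so reads at a site are not independent molecules. Per the labels' protocols, cells were crosslinked for 10 min in 2% formaldehyde, and HindIII and then DpnII digestion were each followed by ligation.

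The most read site of a library marked its bait, and sites up to 10 kb away on either side were dropped. Captured share can level off in deep libraries, as each site counts once. Libraries were grouped by bait, cell line and day from the labels. The members, regions and tests were chosen with earlier results of these data known, including the Ifng values that define the blocks. Named windows are the 6 windows of 500 kb of the blocks and, for Pparg, the block windows of 100 kb that pass or, with none, those of smallest p in each direction. Named sites are the 3 per block captured in the most Ifng 3T3-L1 libraries, with ties broken by mean share of reads.

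The test across windows was that of edgeR 4.0.16, run under R 4.3.3 (robust quasi-likelihood fit, TMM scaling, Benjamini-Hochberg adjustment over all windows of a contrast, threshold 0.05). The fits used captured sites per 500 kb on other chromosomes, in windows with a mean of at least 3, and reads per 100 kb on chromosome 6. One fit per bait held all 9 libraries in 5 groups. The fit was tested on simulated data. Wilson intervals used SciPy 1.17.1, and the permutation tests were exact, over all sign flips. The alternatives were DESeq2 1.42.0, omitting the filter, a block for the replicate number, the other measure, at least 2 reads per captured site, windows of 250 kb, thinned libraries, each flank alone, only sites captured in at least 1 library, and leaving out each library. Flanks without the captured stretches were added after the data were seen. No sequence is shown, since no genome of the mm9 build was used here.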

Additional observations from a re-analysis of the deposited data

Results flagged for a closer look

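In the Pparg libraries the difference between the low block and its flanks was 6.28 percentage points in B cells and below 0 in all 8 3T3-L1 libraries, and that of the high block was 8.58 points in B cells and below 0 in all 8. The B cell library is 1 sample, and the difference between the cell lines in this measure was not tested. Against the flank on the far side from the bait alone, the 3T3-L1 averages were also above 0, at 1.35 and 1.18 points.

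The Lpin1 read multiple of the high block in the day 2 library numbered 2 was 1.95, the highest of the 8 3T3-L1 libraries and far from the next by Dixon's criterion. That library held 569 reads there on 3 captured sites of 351. Chance flags about 1 in 20 groups, and 24 groups were looked at.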

How the results depend on the processing

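Limits: each day has 2 libraries and B cells have 1, the Pparg libraries range from 42094 to 2041336 reads outside the bait, and the flanks of the Pparg bait differ in distance from it. The replicate numbers were not taken as pairs, since replicate differences of 2 days, over all windows, did not correlate above 0.1 in every pair. They correlated at 0.008 to 0.142 for Ifng, -0.025 to 0.106 for Pparg and 0.007 to 0.285 for Lpin1. With the number as a replicate block, 0 block windows were called in any contrast of day or cell line, as without it, and all windows called for Ifng in B cells numbered 10 in place of 18 and for Lpin1 0 in place of 5. The B cell library has no number and was coded there with the libraries numbered 1, so these cell line counts depend on that coding. In that fit 6 of 6 Ifng block windows on day 6 had an unadjusted p under 0.05, against 0 of 6 without it. The 6 windows of the Ifng blocks kept 0 calls in every contrast of day or cell line under all alternatives and leave-one-out fits. In the contrast of libraries numbered 2 against 1, 5 were called on reads, 4 with at least 2 reads per captured site (5.55% of all windows), 1 with no filter and 1 when thinned. The Pparg counts for B cells were 2 with DESeq2, 2 with windows of 250 kb and 7 on captured sites, under a filter that counted the B cell library. DESeq2 called 1 on each of days 1, 2 and 6. Leaving out 1 library gave 0 to 1 for B cells (1 without the day 6 library numbered 1) and 0 to 1 for day 1 (1 without the day 1 or the day 6 library numbered 1). The Pparg window at 106.1 Mb, at -0.15, turned to 0.17 with DESeq2, 0.77 thinned, 0.52 on captured sites, and 0.54, 1.94 and 0.36 without the day 0 library numbered 2 and the day 1 and day 6 libraries numbered 1, over a leave-one-out range of -0.45 to 1.94.

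Against the flank on the low-coordinate side alone, the Lpin1 low block turned to 0.57 points (exact p = 0.0469), the Pparg low block to 1.35 and the Pparg high block to 1.18, and the Lpin1 high block weakened to -0.79. The differences range from -0.27 to 0.11 for the Lpin1 low block (0.11 without the day 2 library numbered 1) and from -1.84 to -1.08 for the Lpin1 high block when 1 library is left out, and from -5.49 to -4.23 and -11.6 to -9.53 for the Pparg low and high blocks. The Ifng differences ranged from 23.2 to 25.6 and 34.2 to 36.7 points. Where a result moved, the cause was not tested.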
